A study of Mus musculus with 6 samples.

Results

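The genes described here encode the proteins of the mitochondrial ribosome. They were taken as the genes whose symbol begins with Mrpl or Mrps followed by a digit, each on an array feature (a probe set) annotated with that gene alone, and each gene was represented by its probe set of highest mean signal over all arrays. This gave 76 genes, 47 of the large subunit (Mrpl) and 29 of the small subunit (Mrps), of 18193 genes with a probe set of their own. A RefSeq gene table held 78 protein-coding genes with such symbols, and the other two, Mrpl30 and Mrpl53, lay only on probe sets shared with other genes and were not used. RNA came from LSK cells, which are marrow cells sorted as lacking lineage markers and carrying Sca-1 and c-Kit, a gate that takes in blood stem cells and early progenitors. It was hybridised to Affymetrix Mouse Genome 430 2.0 arrays.

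The 3 Ercc1-deficient arrays came from -/d mice, which carry a knockout and a truncated (d) allele of Ercc1, whose product pairs with Xpf to cut DNA at bulky lesions and crosslinks. For the 3 Ercc1-proficient arrays litter mates were used, +/+ in litters 1 and 2 and +/d in litter 3, so that the control of litter 3 carried a truncated allele too. All mice were F1 of a C57BL/6 and FVB/n cross; the mice of litter 1 were 22 weeks old, those of litters 2 and 3 were 20 weeks old. Both alleles are carried in every cell of the mouse, so that the marrow around the LSK cells had the same genotype. The labels do not say whether an array held cells of 1 mouse or of several, and p-values therefore concern arrays rather than mice. Where litter was kept as a term, they measure only the spread left between these arrays once litter differences are removed.

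Mitochondrial ribosomes translate the few messenger RNAs of the mitochondrial genome, which encode core subunits of the respiratory chain and of ATP synthase. All of their proteins are encoded in the nucleus, made in the cytosol and imported. The small subunit binds the messenger and decodes it, and the large subunit forms the peptide bond and passes the chain to the inner membrane through its exit tunnel. Blood stem cells are known for relying less on mitochondrial respiration than the progenitors that arise from them.

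Ercc1 averaged 53.1 ± 23.8 in deficient arrays and 183 ± 58.3 in proficient arrays (signal, SD, n = 3 each), a log2 difference of -1.36 with an adjusted p of 0.0159 (limma with litter as a block) and of 1 without the block. It was thus the lower in the arrays labelled deficient. Between 52.3% and 58.6% of signals lay at the floor of 30 on each array. Of the LSK markers, 11 of 13 had a probe set, and their summed signal was 8841, 4000 and 4105 in deficient litters 1 to 3 and 9957, 5024 and 5652 in proficient litters 1 to 3. By log2 difference, 3 LSK markers were higher and 8 lower in deficient arrays. Of 16 markers of granulocytes and monocytes, 14 were measured and 13 were higher in deficient arrays by log2 difference, with Itgam at the floor on all arrays. Csf1r, one of the 13, was nearly equal, with 171, 425 and 354 in deficient and 141, 393 and 429 in proficient litters 1 to 3. The summed signal of the 14 was 18690, 68330 and 111400 in deficient arrays against 4330, 23950 and 36820 in proficient arrays. It was thus higher in the deficient array of every litter and higher in litters 2 and 3 than in litter 1. Cd79a of B cells, Cd3g, Cd4 and Gzma of T and NK cells, Hba-a1 and Alas2 of erythroid cells and Lepr of stroma were at the floor on all arrays. Other markers of these lineages were not: Car1 and Klf1 of erythroid cells reached 1204 and 513 in deficient arrays and 2374 and 744 in proficient arrays. Nkg7 of T and NK cells reached 1211 in deficient and 722 in proficient arrays, Vpreb1 of B cell precursors 798 in deficient and 530 in proficient arrays, and Pf4 of megakaryocytes 2054 in deficient and 1203 in proficient arrays. Each of these values is the highest array of its group. By log2 difference, 2 B cell markers were higher and 3 lower in deficient arrays, and 2 megakaryocyte markers were higher and 3 lower. Of erythroid markers 0 were higher and 4 lower, and of T and NK cell markers 4 were higher and 0 lower. In litter 1 Vpreb1 was 30 in the deficient and 320 in the proficient array. In bulk RNA, fewer cells of a type and less RNA per cell cannot be told apart.

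Promoter windows are shown for the genes that the results below turn on. They are the 3 members of smallest p among those higher in deficient arrays in all 3 litters (Mrps21, Mrpl44, Mrpl50), the 2 of smallest p among those lower in all litters (Mrps5, Mrpl24) and the member with the largest difference between litters (Mrps14), whatever the windows held. RefSeq promoter windows of build GRCm38.p6, from 250 bases before to 50 bases after a gene's start, were found for 67 of the 76 members, in 73 windows. The 250 bases before the start are printed 5′ to 3′ on the strand of the gene, with capitals for matches to any of 9 motifs given after them. They lie at chr3:95871515-95871764 on the minus strand (Mrps21), chr1:79775768-79776017 on the plus strand (Mrpl44), chr4:49521084-49521333 on the minus strand (Mrpl50), chr2:127587176-127587425 on the plus strand (Mrps5), chr3:87919294-87919543 on the plus strand (Mrpl24) and chr1:160194965-160195214 on the plus strand (Mrps14).
Mrps21: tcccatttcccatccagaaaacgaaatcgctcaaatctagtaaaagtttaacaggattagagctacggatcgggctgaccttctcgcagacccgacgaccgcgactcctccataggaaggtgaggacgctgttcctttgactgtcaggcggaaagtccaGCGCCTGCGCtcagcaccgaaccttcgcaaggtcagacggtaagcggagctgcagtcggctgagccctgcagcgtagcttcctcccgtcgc
Mrpl44: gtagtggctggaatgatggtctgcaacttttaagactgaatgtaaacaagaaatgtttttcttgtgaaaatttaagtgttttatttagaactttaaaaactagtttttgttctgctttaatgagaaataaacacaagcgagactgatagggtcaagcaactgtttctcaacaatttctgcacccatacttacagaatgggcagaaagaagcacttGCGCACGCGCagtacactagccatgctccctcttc
Mrpl50: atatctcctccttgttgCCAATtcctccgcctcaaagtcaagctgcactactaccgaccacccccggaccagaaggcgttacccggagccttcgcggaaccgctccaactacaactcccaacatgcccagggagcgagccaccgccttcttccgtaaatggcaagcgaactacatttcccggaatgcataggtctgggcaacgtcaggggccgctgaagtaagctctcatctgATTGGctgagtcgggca
Mrps5: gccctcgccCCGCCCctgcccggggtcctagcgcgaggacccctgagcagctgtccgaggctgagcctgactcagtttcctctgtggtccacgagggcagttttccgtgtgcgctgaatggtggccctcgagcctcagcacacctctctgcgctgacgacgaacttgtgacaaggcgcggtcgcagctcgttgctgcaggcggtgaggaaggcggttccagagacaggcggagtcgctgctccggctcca
Mrpl24: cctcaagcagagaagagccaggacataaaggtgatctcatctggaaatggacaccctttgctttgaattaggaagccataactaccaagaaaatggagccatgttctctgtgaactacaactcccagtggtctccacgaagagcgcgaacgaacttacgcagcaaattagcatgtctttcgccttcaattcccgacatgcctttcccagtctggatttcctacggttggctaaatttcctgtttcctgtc
Mrps14: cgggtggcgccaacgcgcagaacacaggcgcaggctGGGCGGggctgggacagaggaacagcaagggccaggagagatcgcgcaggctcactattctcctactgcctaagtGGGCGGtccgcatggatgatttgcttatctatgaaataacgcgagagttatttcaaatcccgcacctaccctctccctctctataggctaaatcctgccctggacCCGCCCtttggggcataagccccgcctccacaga

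The motifs were searched on both strands of the 300 bases of each window. The ETS motif CCGGAAG, bound by factors such as GABPA, was in 34.2% of the members' windows and in 8.86% of all 32851 windows of the same length. The YY1 motif AAGATGGC was in 16.4% against 2.75%, and the NRF1 motif, a pair of GCGC arms with any bases between, in 17.8% against 6.23%. In windows of oxidative phosphorylation subunits the ETS motif was in 23.6%, and in those of cytosolic ribosomal proteins in 40.5%. For the YY1 motif these shares were 12.5% and 7.14%, and for the NRF1 motif 23.6% and 14.3%. The ETS, YY1 and NRF1 motifs were thus not particular to the members. NRF1 and GABPA are known as activators of nuclear genes for mitochondrial proteins. The Sp1 motif GGGCGG was in 53.4% against 35.7%, with 41.7% for oxidative phosphorylation subunits and 52.4% for cytosolic ribosomal proteins. The E-box CACGTG was in 9.59% against 7.15%, and the NF-Y motif CCAAT in 39.7% against 37.4%, both near the share in all windows. The remaining motifs overlap with these: a strict form of the NRF1 motif, with AT between the arms, was in 4.11% against 0.971%, AAGATGGCG in 11.0% against 1.4%, and AAAATGGCG in 1.37% against 0.472%. Among the genes shown, Mrps21 and Mrpl44 hold an NRF1 match before the start, Mrpl50 a pair of CCAAT matches, Mrps5 and Mrps14 Sp1 matches, and Mrpl24 none of the 9 motifs. These matches are letters in a window and are not measured binding.

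The first comparison asked how these genes differ when Ercc1 function is reduced, within litters. No mitochondrial ribosomal protein gene passed an adjusted p of 0.05 (limma with litter as a block, Benjamini-Hochberg over 22519 probe sets), where 0.786% of tested probe sets and 1.07% of all 10879 tested genes did. At an unadjusted p under 0.05, 5 members were higher in deficient arrays (6.58%, against 4.65% of all tested genes) and 0 were lower (7.41% of all tested genes). The fitted log2 difference was above 0 in 60 of 76 members with a median of 0.14, where it was above 0 in 46.77% of all tested genes with a median of -0.02. This tilt differed from litter to litter: 69 members were higher in the deficient array in litter 1, 52 in litter 2 and 19 in litter 3, with median differences of 0.45, 0.17 and -0.13. Without litter 1, 36 of 76 were higher and the median was -0.02; without litter 2, 55 were higher, and without litter 3, 69 were higher.

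The most frequent pattern was higher in deficient arrays of litters 1 and 2 and lower in litter 3, shown by 37 members (48.7%, against 10.4% of all tested genes). It was not particular to the members, being shown by 62.7% of oxidative phosphorylation subunits and 65% of cytosolic ribosomal proteins. In all, 11 members were higher in all 3 litters (14.5%, against 12.6% of all tested genes) and 3 were lower in all (3.95%, against 17.9%). The groups did not overlap for 1 member, Mrpl44, which was higher (1.32%, against 2.41% of all tested genes), and for 0 members that were lower (5.23% of all tested genes). The direction of 40 members turned when at least 1 litter was left out.

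**Figure D1:**
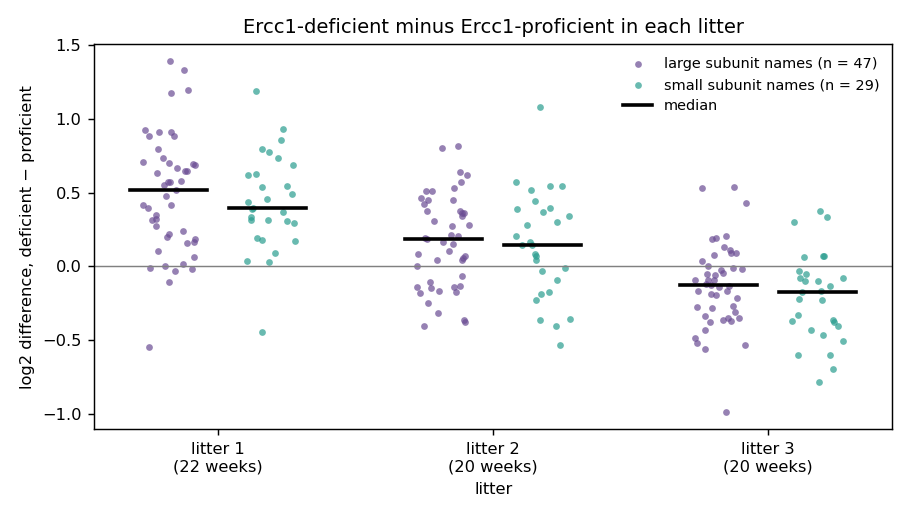
Log2 difference between the deficient and the proficient array of each litter for each of the 76 genes (one point per gene, y axis) by litter (x axis), with large and small subunit genes apart and their medians as bars. The medians of the large subunit are 0.52, 0.19 and -0.13 and those of the small subunit 0.40, 0.15 and -0.17 in litters 1, 2 and 3.

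The large and the small subunit were set against each other since each ribosome joins one of each. The median log2 difference between deficient and proficient arrays was 0.13 for the 47 large subunit genes and 0.14 for the 29 small subunit genes. In the single litters the large minus the small subunit median was 0.13, 0.04 and 0.05, which is small beside the change of either median from litter to litter. Counted as higher in deficient arrays were 41 large and 28 small subunit genes in litter 1, 33 and 19 in litter 2, and 13 and 6 in litter 3. Placing Mrps30 and Mrps18a in the large subunit, where ribosome structures put them, and leaving out Mrps36, which is known as a component of the 2-oxoglutarate dehydrogenase complex, gave differences of 0.10, 0.01 and 0.07.

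**Figure D2:**
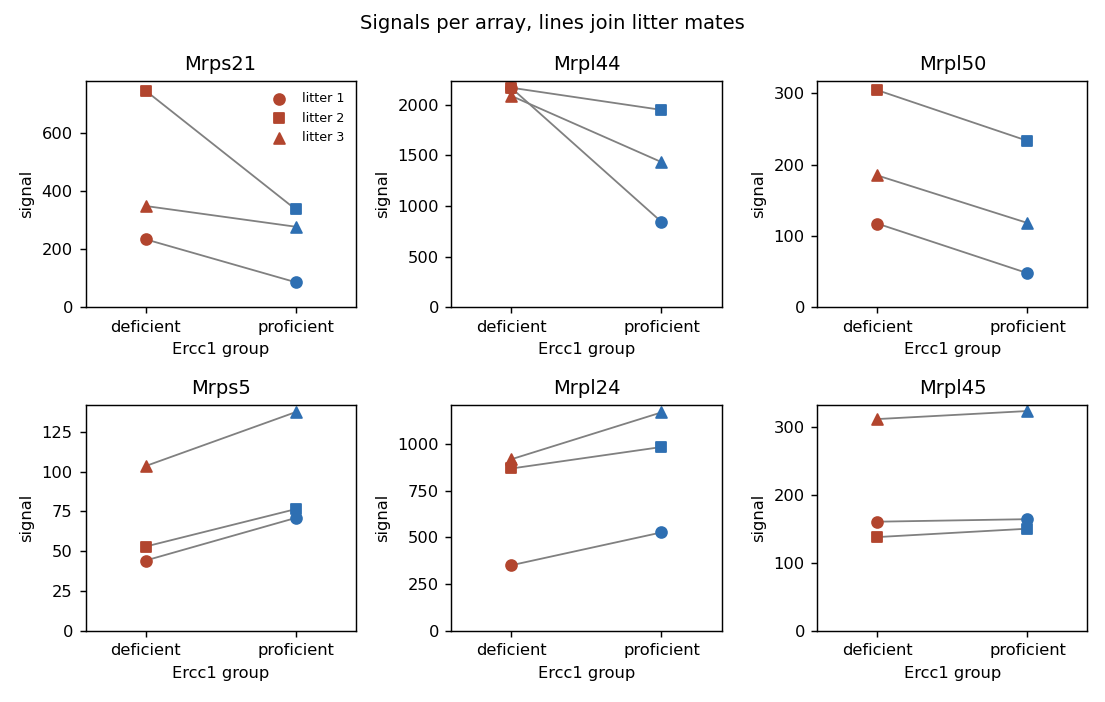
Signal (y axis, linear, from 0) of 6 members in the deficient (left) and proficient (right) arrays, with a line joining the litter mates of each litter. Mrpl44 is the panel in which the 3 deficient arrays, between 2087 and 2168, lie above all proficient arrays, between 842 and 1949.

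The member with the smallest p was Mrps21, the counterpart of bacterial small subunit protein S21. Its signal was 233, 744 and 348 in deficient litters 1 to 3 and 85.6, 336 and 276 in proficient litters 1 to 3. The deficient array was the higher in each litter, by 2.72, 2.21 and 1.26 times, and the groups overlap because the litters differ. The fitted log2 difference was 0.86 (SE 0.24) with an adjusted p of 0.108 (limma). A second tested probe set of Mrps21, near the floor with means of 36.15 in deficient and 36.06 in proficient arrays, gave 0.0025. Centring each array on its median moved the median of all tested genes from -0.02 to 0.07 and gave Mrps21 an adjusted p of 0.0248 (limma), the sole setting of those run in which a member passed.

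Mrpl44 is a large subunit protein with a ribonuclease III fold, and mutations in the human gene cause a cardiomyopathy of infancy. Its signal was 2165, 2168 and 2087 in deficient arrays and 842, 1949 and 1433 in proficient arrays. All deficient arrays were above all proficient ones, which varied far more among themselves. The fitted log2 difference was 0.67 (SE 0.25), with an adjusted p of 0.284 (limma), and it was 0.34 without litter 1. An exact two-sided permutation p over the arrays, which leaves the pairing by litter aside, was 0.1 for Mrpl44, the smallest that 3 against 3 arrays can give, 0.4 for Mrps21 and 0.5 for Mrpl50. The other tested probe sets of Mrpl44 gave log2 differences of 0.17 and -0.35, so that they do not share one direction.

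Mrpl50, a large subunit protein with no bacterial counterpart, had 117, 304 and 185 in deficient arrays against 47.6, 233 and 118 in proficient arrays. The deficient array was the higher in each litter and the fitted log2 difference was 0.60 (SE 0.24, limma adjusted p = 0.318), while a second probe set gave -0.17. Mrpl22, whose bacterial counterpart lines the exit tunnel, had 455, 1553 and 909 in deficient arrays and 250, 1552 and 668 in proficient arrays, nearly equal in litter 2. Mrpl54, Mrpl34, Mrps15, Mrpl18, Mrpl35 and Mrpl32 were also higher in all litters, with fitted log2 differences from 0.19 for Mrpl32 to 0.44 for Mrpl54 and adjusted p from 0.518 to 0.768 (limma). Mrpl32 is known to be cut by the m-AAA protease of the inner membrane before it joins the ribosome.

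Lower in all 3 litters were Mrps5, Mrpl24 and Mrpl45. Mrps5, whose bacterial counterpart S5 bears on the accuracy of decoding, had 44.1, 52.9 and 104 in deficient arrays and 70.9, 76.4 and 137 in proficient arrays, a log2 difference of -0.38 (SE 0.22, limma adjusted p = 0.557). Another of its probe sets went the other way, with 0.50. Mrpl24, whose bacterial counterpart L24 lies at the exit of the tunnel, had 351, 868 and 918 in deficient arrays and 526, 983 and 1168 in proficient arrays, a log2 difference of -0.35 (limma adjusted p = 0.577). Mrpl45, which anchors the ribosome to the inner membrane, differed by -0.06, and by 0.01 after quantile normalization.

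The stalk of the large subunit recruits the translation factors. Its members Mrpl12, Mrpl11 and Mrpl10 had fitted log2 differences of 0.08, 0.31 and -0.14, none past the test. Mrpl12 had 216, 540 and 379 in deficient arrays and 122, 364 and 778 in proficient arrays, so that the deficient array was the higher in litters 1 and 2 and the lower in litter 3. Mrpl23, at the tunnel exit, showed the same order, with 286, 1469 and 643 in deficient arrays against 197, 1209 and 963 in proficient arrays. Mrpl3 and Mrpl2, which lie near the peptidyl transferase centre in bacterial ribosomes, differed by 0.02 and 0.06. For Mrpl2 the signal was 257, 359 and 431 in deficient arrays and 123, 470 and 567 in proficient arrays, higher in the deficient array in litter 1 and lower in litters 2 and 3.

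In the small subunit, Mrps12 of the decoding centre differed by 0.13, and Mrps7, Mrps9 and Mrps2 by 0.02, -0.10 and -0.05, none past the test. The paralogues Mrps18a, Mrps18b and Mrps18c differed by -0.15, 0.30 and 0.28, and Mrps30 and Mrps36 by 0.23 and 0.16. Of the brightest members, Mrpl52 (0.32), Mrpl39 (0.06), Mrpl41 (0.60), Mrps14 (-0.01), Mrps18c and Mrps24 (0.24) did not pass, nor did the dimmest, Mrpl14 (-0.06), Mrpl38 (0.07), Mrpl37 (0.13), Mrps23 (0.13), Mrps27 (0.07) and Mrps5. Mrpl41 was among those with an unadjusted p under 0.05, with 1077, 5083 and 1981 in deficient arrays and 393, 3306 and 2267 in proficient arrays. Of the 31 members with at least 2 tested probe sets, 13 had probe sets of both signs: Mrpl3, Mrpl15, Mrpl19, Mrpl35, Mrpl38, Mrpl39, Mrpl44, Mrpl48, Mrpl50, Mrpl51, Mrpl52, Mrps5 and Mrps14.

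**Figure D3:**
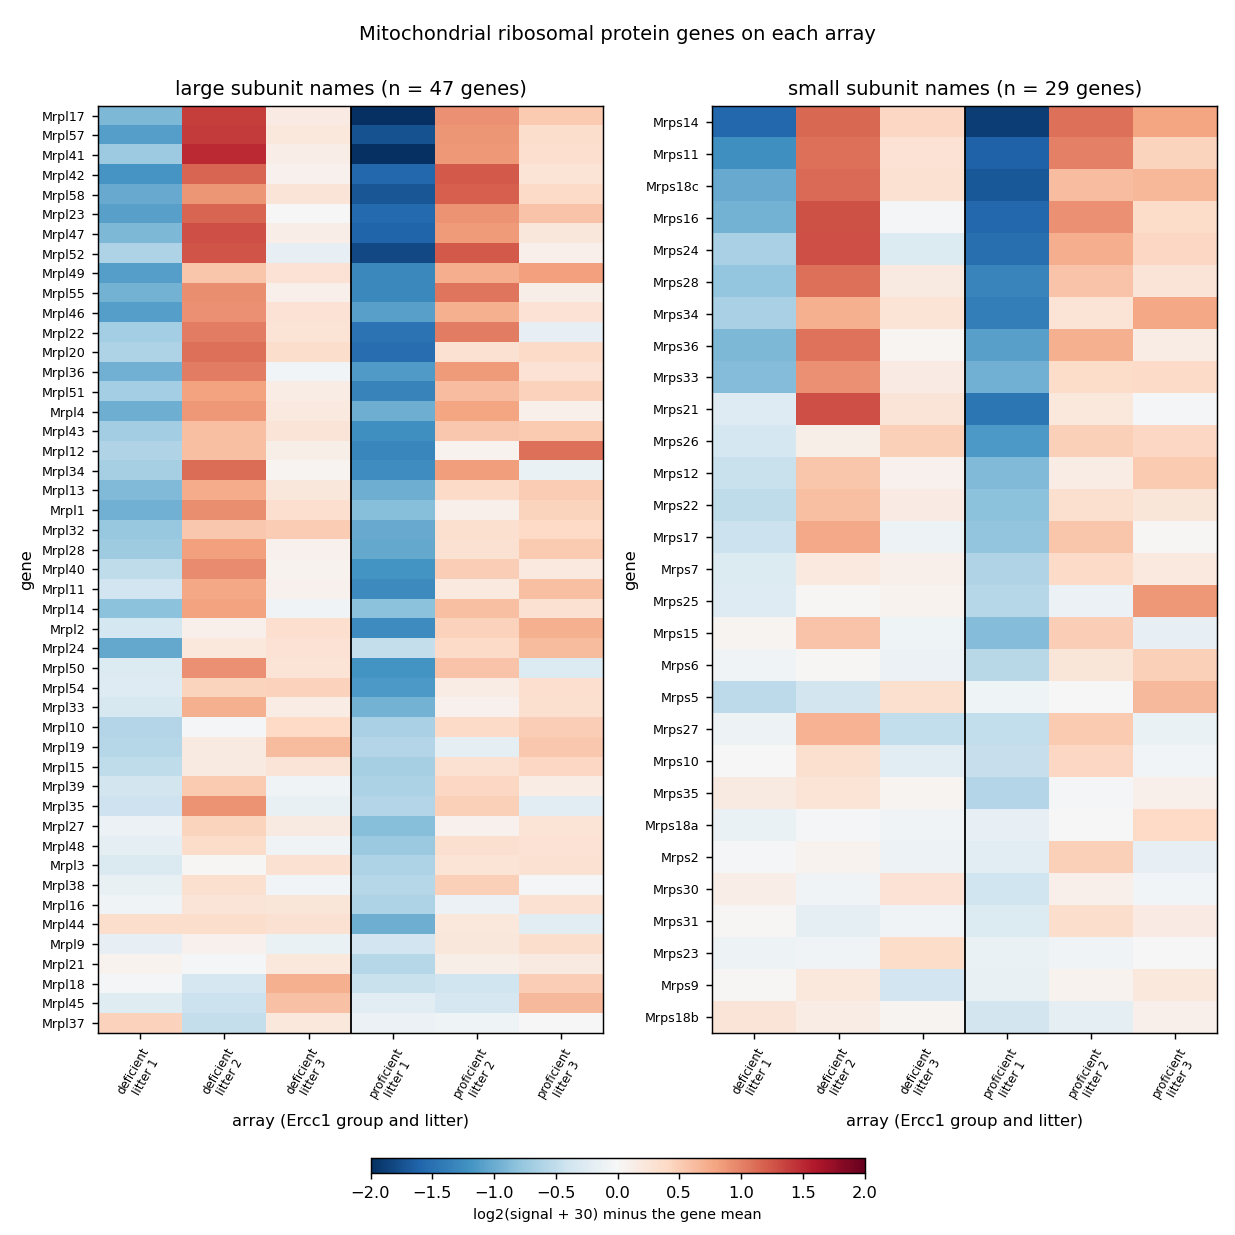
Level of each of the 76 genes (rows) on each array (columns), as log2(signal + 30) minus the gene's mean over the 6 arrays, with large and small subunit genes in separate panels and deficient arrays on the left of each. The columns of litter 1 are low for most genes, and the proficient array of litter 1 is the lowest of the 6 for 67 genes.

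The larger differences among these genes lay between litters. Litter accounted for a median of 88.4% of a member's sum of squares over the arrays and the Ercc1 group for 2.2%, where all tested genes had medians of 64.6% and 9.0%. The proficient array of litter 1 was the lowest of the 6 for 67 members (88.2%, against 27.0% of all tested genes). This share was 84% in oxidative phosphorylation subunits and 87.5% in cytosolic ribosomal proteins. In these lists litter accounted for medians of 91.2% and 91.4% of the sum of squares. A contrast of litter 1 with the mean of litters 2 and 3, with the Ercc1 group kept as a term, was therefore added after the values had been seen. Only litter 1 was aged 22 weeks, so that age, litter and anything else that set this litter apart cannot be told apart.

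In litter 1, 53 of 76 members were lower than in litters 2 and 3 at an adjusted p under 0.05 (limma), which is 69.7% of them, against 16.6% of all tested genes. None was higher at that threshold or at an unadjusted p under 0.05, where 13.3% of all tested genes were higher at the adjusted one, and 1 member, Mrpl37, had a difference above 0. The median log2 difference was -1.12 over the members and -0.07 over all tested genes. Both arrays of litter 1 lay below the other 4 for 59 members (77.6%, against 22.2% of all tested genes). This share was 88% in oxidative phosphorylation subunits and 90% in cytosolic ribosomal proteins. Since the members that led to this contrast are those it counts, its p-values are no independent evidence. They also set the difference against the spread within litters, with the litter mates of 1 litter on one side, so that they do not measure how litters vary among themselves, and no test over litters is possible with 1 litter aged 22 weeks.

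The count changed with the litters in the fit and with the filter on weak probe sets. Without litter 2 it was 0, as it was for all genes, with a median of -1.02 over the members, of which 42 were lower at an unadjusted p under 0.05. Without litter 3 it was 48, with a median of -1.23. With no filter it was again 0 for the members and for all genes, with 53 members lower at an unadjusted p under 0.05. Set against one another, litter 1 was lower than litter 2 in 53 members (16.9% of all tested genes were lower and 13.8% higher) and lower than litter 3 in 50 (11.5% and 8.3%), and litters 2 and 3 differed in 0 (limma). Of all tested genes, 0.57% were called higher and 1.4% lower in litter 2 than in litter 3 at the adjusted threshold. At an unadjusted p under 0.05, 24 members were higher and 4 lower in litter 2 than in litter 3. For the counts at an unadjusted p in this paragraph, the share of all tested genes was not computed. They can therefore not be read against it.

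**Figure D4:**
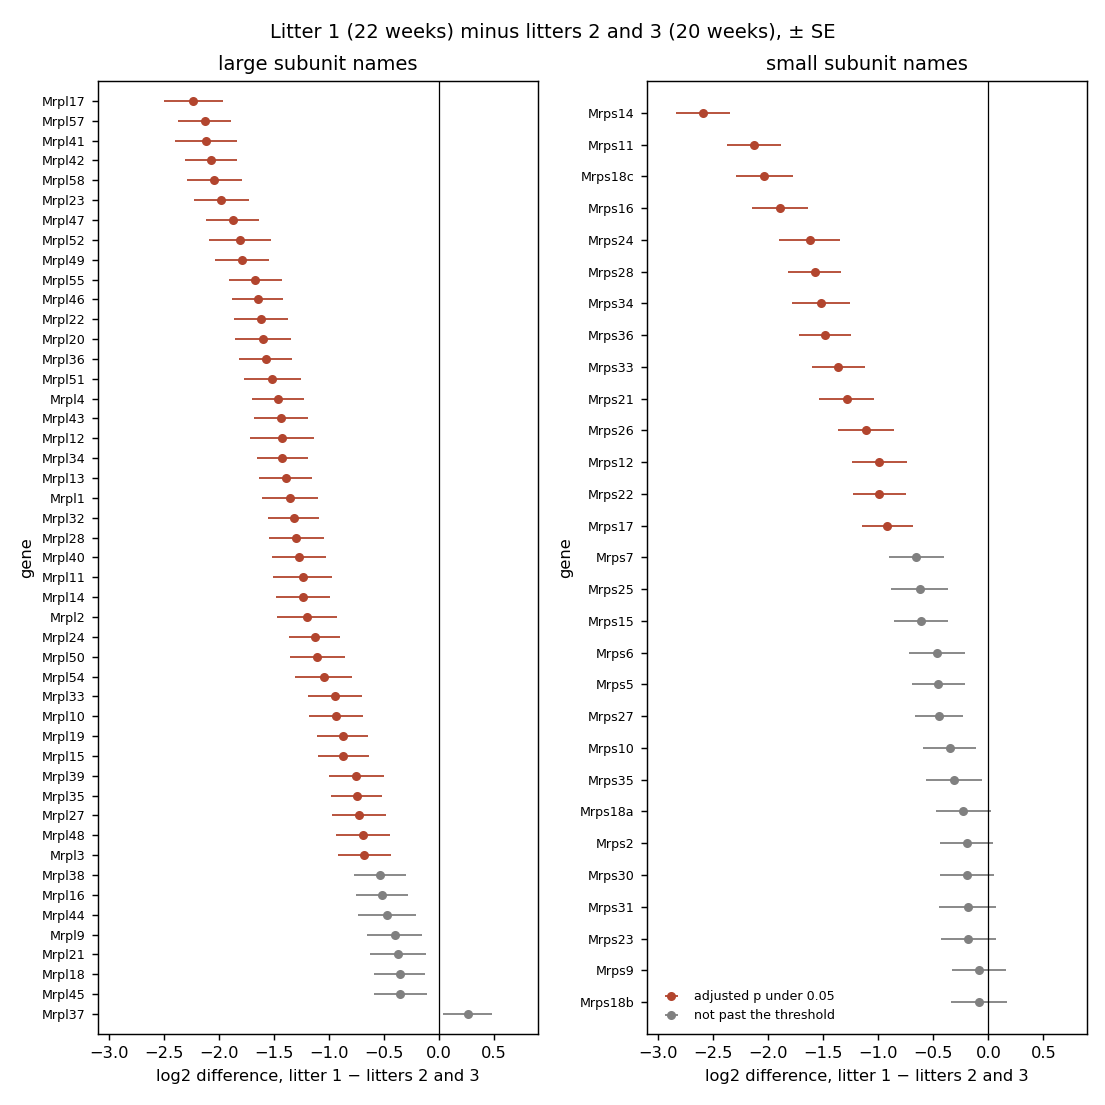
Log2 difference between litter 1 and the mean of litters 2 and 3 (x axis, with its SE, from the spread within litters, as a bar) for each gene (rows), in panels for large and small subunit. Values run from -2.59 for Mrps14 to 0.26 for Mrpl37.

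Mrps14, the counterpart of bacterial S14, was the member with the lowest value. Its signal was 563 in the deficient and 446 in the proficient array of litter 1, against 3863 and 2323 in the deficient and 3749 and 3021 in the proficient arrays of litters 2 and 3. The log2 difference was -2.59, while the other tested probe sets of Mrps14, with mean signals of 275 and 41.6, gave 0.13 and 0.31. Mrpl17, Mrpl57, Mrps11 and Mrpl41, chosen here by the size of this difference, followed with -2.23, -2.13, -2.13 and -2.12. Mrpl14 was at the floor of 30 on both arrays of litter 1. In litters 2 and 3 it was 154.6 and 71.64 in deficient and 132 and 101.5 in proficient arrays. Taken as a geometric mean over the arrays of litters 2 and 3, it was at least 3.68-fold higher there. At the other end, Mrps18b and Mrps9 differed by -0.09 each and Mrps23 by -0.18, none past the test.

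The large subunit differed more between litters than the small one by this measure. Of the large subunit genes 39 of 47 were lower in litter 1 with a median of -1.27, and of the small subunit genes 14 of 29 with a median of -0.66. The large minus small subunit median was -0.62, and it was -0.45 with the subunits as ribosome structures place them and -0.30 with the mean over a gene's tested probe sets. No test of the difference between subunits was made.

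The members' other probe sets gave a weaker picture. Of 53 tested probe sets that were not the brightest of their gene, from 31 genes, 15 were lower in litter 1 at an adjusted p under 0.05 (limma), 3 were higher, and the median was -0.16. In 37 of the 53 the sign was that of the gene's brightest probe set. The 15 that were lower had mean signals of 112 or more. Many of the others lay near the floor, down to 33.1 for one of Mrpl3, where differences are understated. Some brighter ones were not called either, such as those of Mrpl44 (mean signal 912, difference -0.15) and Mrps14 (275, 0.13). The 3 that were higher belong to Mrpl51, Mrpl57 and Mrps9, with 0.82, 0.90 and 0.85, where the brightest probe sets gave -1.52, -2.13 and -0.09. With the mean over tested probe sets the median of the members was -0.93.

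Readings of RNA quality and of cell content moved with litter, and their part in these differences was not tested. The 3′ to 5′ log2 difference of the Gapdh control probe sets was 4.71, 2.43 and 2.30 in deficient litters 1 to 3 and 3.64, 2.99 and 2.73 in proficient litters 1 to 3, highest in litter 1 in both groups. That of Actb was 4.97, 4.27 and 3.30 in deficient arrays and 4.05, 4.43 and 3.70 in proficient arrays. The summed granulocyte and monocyte signal given above was lowest, and the summed LSK signal highest, in litter 1 of either group. The summed erythroid signal was also lowest there, with 857, 2189 and 1600 in deficient litters 1 to 3 and 502, 3811 and 2318 in proficient litters 1 to 3. So was the summed megakaryocyte signal, with 1113, 2615 and 1211 in deficient arrays and 513, 1991 and 1248 in proficient arrays.

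Other genes of mitochondrial translation and respiration were set beside the members, in lists made with earlier results of these data known. The list called tRNA synthetases also held Gatb, Gatc and Qrsl1, which are not synthetases. That of cytosolic ribosomal proteins also held Rps19bp1, which is not a ribosomal protein. The assembly and rRNA list also held genes of wider mitochondrial transcription and RNA handling, such as Tfam, Polrmt, Lrpprc, Slirp and Mtpap. None of these lists held a gene past the test between deficient and proficient arrays (limma). Of their 176 tested genes, 10 were higher and 4 lower at an unadjusted p under 0.05. Of all tested genes, 4.65% were higher and 7.41% lower at that threshold. Oxidative phosphorylation subunits were higher in deficient arrays in 63 of 75 tested genes with a median of 0.29, which was 0.09 without litter 1 and 0.53 without litter 3. Cytosolic ribosomal proteins were higher in 31 of 40 with a median of 0.17, which turned to -0.02 with quantile normalization and lay between 0.01 and 0.31 when a litter was left out, lowest without litter 1. Both were lower in the deficient array in litter 3, with medians of -0.14 and -0.20, as the members were. Mitochondrial translation factors, mitoribosome assembly and rRNA genes, and mitochondrial tRNA synthetases had medians of 0.01, -0.06 and -0.12. The median of assembly and rRNA genes turned to 0.01 with quantile normalization, 0.03 with median centring and 0.03 without litter 3, and that of translation factors to -0.10 without litter 1. The mitochondrial ribosomal proteins under other names, Dap3, Ptcd3, Chchd1 and Gadd45gip1, were higher in 2 of 4 with a median of 0.0008, which was -0.21 without litter 1. The smallest p values in these lists belonged to Ndufv3, a complex I subunit, with 879, 2596 and 1324 in deficient arrays and 420, 1693 and 813 in proficient arrays (log2 difference 0.77, limma adjusted p = 0.132), and to Pnpt1, a mitochondrial RNA-processing exonuclease, with 84.7, 142 and 125 against 190, 277 and 175 (-0.73, limma adjusted p = 0.192).

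Between litter 1 and litters 2 and 3, 66 of 75 oxidative phosphorylation subunits were lower with a median of -1.58, and 30 of 40 cytosolic ribosomal proteins with a median of -0.95. Translation factors were lower in 2 of 10 with a median of -0.01, assembly and rRNA genes in 5 of 29 with a median of -0.23, and tRNA synthetases in 1 of 18 with a median of -0.19. Of the 4 under other names 1 was called lower, 3 had a difference below 0 and the median was -0.56. The lists were not tested against each other, and the share in all tested genes was 16.6%.

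**Figure D5:**
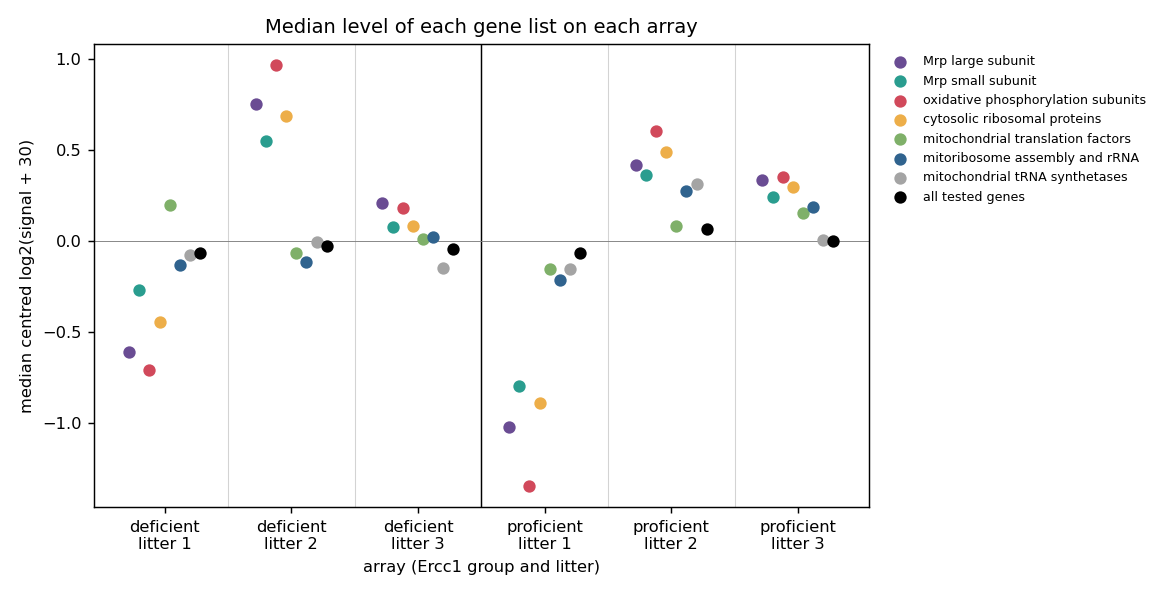
Median level of each gene list on each array (y axis, log2(signal + 30) minus the gene's mean over arrays), deficient arrays on the left and proficient arrays on the right. The large subunit median is -0.61 and -1.02 in the deficient and proficient arrays of litter 1 and between 0.21 and 0.75 on the other 4, and all tested genes stay between -0.07 and 0.07.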

How the data were processed

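RNA of sorted LSK cells underwent repeated linear amplification before hybridisation, per the labels' protocols, a step known to lose 5′ sequence. The deposited signals are intensity values, linear and never below 30. MAS5 is the tool named in the submitters' processing notes, with no version; its scaling target is not given in these sources. Weak genes cannot be compared below that floor, and precision is limited by having 3 arrays in each group.

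Signals were transformed as log2(signal + 30), on which changes of weak genes are understated. Of 45037 probe sets, not counting 64 controls, the 22519 with a mean log2 value at or above the median were tested with limma 3.58.1 in R 4.3.3 (lmFit, eBayes with a variance trend), with group and litter as terms and Benjamini-Hochberg adjustment at 0.05. The fits were tested on simulated data. Gene names come from GEO's annotation of this array, and the Entrez identifiers of the 76 members were all found in the RefSeq genes of GRCm38.p6, with 0 symbols changed.

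The members, gene lists, tests and alternatives were chosen with earlier results of these data known. Litter was kept as a block because the labels name arrays of equal number as litter mates and the comparison is within pairs. An earlier account of these data had used group as the only term, and it was known then that the block raised the number of probe sets called to 177, against 0 without it. No member was called in either fit. After removing group means, litter mates correlated across probe sets with r = 0.77, 0.67 and 0.46. A filter on the linear mean was also tried, and the log mean was kept because its counts matched the earlier account; the linear one calls 188. The contrast between litters was in no prior plan: it and the 3 comparisons of single litters were added after the values were seen. The 9 motifs searched are all reported; the printed promoters follow the rule given with them, set after an earlier look at the matches.

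Genes named are members past the adjusted threshold, up to 10 per direction with the smallest p and the same sign in all litters, the 3 brightest and 3 dimmest of each subunit, members of fixed roles, and members whose tested probe sets differ in sign. Normalization, pseudocount, filter, variance trend, the litter block, the probe set rule and the litters were varied.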

Additional observations from a re-analysis of the deposited data

Results flagged for a closer look

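The difference between deficient and proficient arrays was opposite in sign in litter 1, aged 22 weeks, and in both litters aged 20 weeks for 7 of the members named above. This difference was not tested, since a single litter was aged 22 weeks, and such a split was found in 17 of 76 members (22.4%) and in 17.2% of all tested genes. The deficient minus proficient log2 difference in litter 1 exceeded the mean of those in litters 2 and 3 by 1.28 for Mrpl2, 0.52 for Mrpl38, 0.48 for Mrps7, 0.45 for Mrpl3, 0.31 for Mrpl10, 0.31 for Mrpl15 and 0.27 for Mrps18a, each of them above 0 in litter 1 and below 0 in the other litters. The medians of 4 comparison lists split in the same way, also untested, by 0.80 for mitoribosomal proteins named otherwise, 0.30 for translation factors, 0.25 for assembly and rRNA genes and 0.25 for tRNA synthetases.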

How the results depend on the processing

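With no replicate block, that is without the pairing of litter mates, 0 probe sets passed, against 177 with it, and 0 members passed in either fit. The count over all probe sets was 312 with median centring, of which 179 were higher and 133 lower (66 and 111 as reported), 0 with no filter, 97 with no variance trend and 0 to 5 without a litter. Members called were 1 with median centring and 0 under the other settings run. Leaving out a litter gave 36 to 69 members higher and a large minus small subunit median of 0.014 to 0.060, against -0.0078 with all litters. Between litters, the members' median was -1.35 with no pseudocount, -0.89 with a pseudocount of 100 and -0.93 as the mean over probe sets. The number of members lower in litter 1 was 0 with no filter and 0 to 48 without litter 2 or 3. The large minus small subunit median between litters was -0.48 to -0.38 without a litter, -0.45 by structures and -0.30 as the mean over probe sets. The cause of these changes was not tested.

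Some small differences turned sign. With quantile normalization Mrpl45 was 0.009, Mrpl39 -0.078 and Mrpl14 0.0007, and with median centring Mrpl45 was 0.031, Mrpl14 0.029, Mrps14 0.085, Mrps2 0.036 and Mrpl15 0.044. Over the fits without a litter, the log2 difference ran from -0.11 to 0.62 for Mrpl52, -0.054 to 0.19 for Mrpl39, -0.10 to 0.19 for Mrpl38, -0.091 to 0.39 for Mrpl37, -0.061 to 0.71 for Mrps24, -0.1 to 0.28 for Mrps27, -0.23 to 0.61 for Mrpl12, -0.14 to 0.38 for Mrpl23, -0.13 to 0.15 for Mrpl3, -0.37 to 0.27 for Mrpl2, -0.018 to 0.42 for Mrps12, -0.14 to 0.12 for Mrps7, -0.16 to 0.31 for Mrpl48, -0.058 to 0.43 for Mrpl51, -0.17 to 0.12 for Mrps2, -0.19 to 0.094 for Mrpl14, -0.17 to 0.18 for Mrps14, -0.23 to 0.16 for Mrps9 and -0.15 to 0.013 for Mrpl15. A filter on the linear mean, chosen after seeing the data, called 188 probe sets and changed no member's call. The floor and the 3 arrays per group limit what can be seen in the dimmest members.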
